A study of Mus musculus with 12 samples.

Results

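Csf1, Mmp9 and Pglyrp1 encode 3 secreted proteins, and their transcripts were followed in regulatory T cells (Tregs), the Foxp3-expressing CD4 T cells that restrain immune responses. They are 3 of the 24417 genes listed and were found by symbol in each of the 4 expression tables. The 3 genes were chosen by their measured differences between T cell receptors (TCRs), the rlog values and the authors' group values of the TCR comparisons, so their differences between TCRs are described here without a test. The question asked of them was how their levels stood across TCR and tissue.

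NOD mice, a strain prone to autoimmune diabetes, were the source of the sorted Tregs, and their age was 6.8 weeks. The 4 groups, of 3 libraries each, were islet Tregs with the TCR 4-8, islet Tregs with the TCR 12-4.4m1, spleen Tregs with 4-8 and spleen Tregs with 12-4.4m1. Both TCRs recognise insulin, 4-8 with high and 12-4.4m1 with low affinity, and the series describes the mice as retrogenic for both. Retrogenic T cells arise from bone marrow transduced with a retrovirus carrying TCR genes. The labels do not name the recipients, nor do they say whether a library came from 1 mouse or from pooled mice. The replicates may therefore be technical in part, and each affinity is represented by 1 receptor, so affinity cannot be told apart from other properties of that receptor.

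CSF1, also called M-CSF, is the growth factor of macrophages and acts through the receptor encoded by Csf1r. It is made as secreted and as membrane-bound forms, and membrane-bound CSF1 can be released by the protease ADAM17. MMP9, or gelatinase B, digests denatured and basement membrane collagen and is inhibited mainly by TIMP1. PGLYRP1 binds the peptidoglycan of bacterial cell walls and is stored in neutrophil granules, where MMP9 is stored as well. In studies of human cells PGLYRP1 has been described as a ligand of TREM1.

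In the annotation GENCODE vM21 on GRCm38, Csf1 lies at chr3:107741048-107760469 on the minus strand, and its principal transcript has 9 exons. Mmp9 lies at chr2:164940780-164955850 on the plus strand with 13 exons, and Pglyrp1 at chr7:18871331-18890459 on the plus strand with 3 exons. No exon of another annotated gene overlapped the exons of any of the 3, with 0 found for each. For Mmp9 the RefSeq set used held no promoter window, so its promoter was not analysed here. The promoter windows of the other members, Csf1 and Pglyrp1, are shown. Both are RefSeq windows on GRCm38.p6 of 300 bases each, written 5′ to 3′ on the strand of the gene, with letters of the NF-kB motif in capitals. The Csf1 window is chr3:107760420-107760719 on the minus strand, and the Pglyrp1 window is chr7:18884440-18884739 on the plus strand.
Csf1: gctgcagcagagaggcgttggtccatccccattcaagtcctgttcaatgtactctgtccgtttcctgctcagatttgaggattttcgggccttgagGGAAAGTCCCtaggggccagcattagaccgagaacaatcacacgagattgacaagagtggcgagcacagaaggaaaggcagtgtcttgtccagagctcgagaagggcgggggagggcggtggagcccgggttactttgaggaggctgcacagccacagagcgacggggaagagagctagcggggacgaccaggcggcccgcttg
Pglyrp1: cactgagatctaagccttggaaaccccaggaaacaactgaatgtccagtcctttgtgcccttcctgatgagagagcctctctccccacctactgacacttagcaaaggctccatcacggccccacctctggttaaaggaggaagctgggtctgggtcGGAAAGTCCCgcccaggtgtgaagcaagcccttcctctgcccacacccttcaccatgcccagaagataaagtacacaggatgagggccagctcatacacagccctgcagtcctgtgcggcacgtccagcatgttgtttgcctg
Each window held 1 match to the NF-kB motif, on the strand opposite to the gene. The match lay 154 to 145 bases before the RefSeq start of Csf1 and 93 to 84 bases before that of Pglyrp1, and the matched bases were the same in both. The Pglyrp1 window lies inside the GENCODE span of the gene, which begins further upstream, and the locus in the authors' deposited table begins at 18884690, within the window. Of the 32851 RefSeq promoter windows of this length that were counted, 394 (1.2%) held this motif on either strand. The windows of 1 chromosome were left out of this count. The NFAT letters TGGAAA occurred once in the Pglyrp1 window and not in that of Csf1, and 21.4% of the counted windows held them. The letters for AP-1 (TGANTCA) and Runx (TGTGGT) and the IRF motif were in neither window, and 7.81%, 16.8% and 3.44% of the counted windows held them. These matches describe letters and are not evidence that a factor binds.

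Values are rlog values, log2 counts that DESeq2 shrinks towards the gene's mean where counts are low, and they are comparable within a table of 6 libraries and not between tables. Mean normalized counts of a table, over its 6 libraries, ranged from 77.2 to 365 for Csf1, from 23.9 to 53.9 for Mmp9 and from 146 to 475 for Pglyrp1, so all 3 passed the filter of a mean of at least 10 in all 4 tables. The tables' mean normalized counts summed to 898995 to 1316454. The depth of a library cannot be read from these files. All 12 Treg and T cell identity genes passed the filter in every table, and Foxp3, which defines Tregs, differed by -0.06 to 0.14 (log2) in the 4 comparisons without passing in any. Others of the 12 moved with tissue: 4 were higher in islets with 4-8 and 2 with 12-4.4m1. Of all genes tested, 7.98% with 4-8 and 6.81% with 12-4.4m1 were called between tissues in either direction. Cd4 was among the identity genes called, higher in islets by 0.71 with 4-8 and 0.86 with 12-4.4m1 (log2, limma adjusted p = 0.00655 and 0.000241). Islet 4-8 replicate 2 and islet 12-4.4m1 replicates 1 and 2 have titles in another style than the other libraries, so title style is uneven between the TCRs and present only in islets. Xist, a transcript of female cells, ranged from 6.51 to 10.92 (rlog) over the tables of the TCR comparisons.

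In islets, Csf1 and Pglyrp1 were higher with 4-8 than with 12-4.4m1 and Mmp9 was not. Csf1 had rlog values of 8.18, 8.03 and 8.34 in the 4-8 libraries, against 6.19, 6.20 and 7.38 in the 12-4.4m1 libraries. The groups did not overlap, and 12-4.4m1 replicate 3 stood well above the other two of its group. The means were 8.18 ± 0.15 for 4-8 and 6.59 ± 0.68 for 12-4.4m1 (SD, n = 3 each), a log2 difference of 1.60 or 3.03-fold. In the authors' deposited table, which gives FPKM (fragments per kilobase of transcript, scaled to sequencing depth) per group without an error, Csf1 was 136 in 4-8 and 25.7 in 12-4.4m1.

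Pglyrp1 had rlog values of 8.17, 8.02 and 8.61 in the islet 4-8 libraries, against 7.14, 7.03 and 7.51 in the islet 12-4.4m1 libraries. Again no library of one TCR reached the other, with 0.52 between the nearest pair, and replicate 3 was the highest of both groups. The means were 8.27 ± 0.30 for 4-8 and 7.23 ± 0.25 for 12-4.4m1, a log2 difference of 1.04 or 2.06-fold. The authors' deposited FPKM of Pglyrp1 was 701 in 4-8 and 223 in 12-4.4m1.

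Mmp9 had rlog values of 4.38, 4.60 and 4.35 in the islet 4-8 libraries, against 4.30, 4.72 and 4.97 in the islet 12-4.4m1 libraries. All 3 values of 4-8 lay inside the range of 12-4.4m1, and the log2 difference was -0.22. In the authors' deposited table its FPKM was 6.51 in 4-8 and 10.8 in 12-4.4m1, and the authors' program did not test it. Of the 3 members 2 had groups that did not overlap and were higher in 4-8, against 5.92% of the 8212 genes tested, a count that follows from how the members were chosen.

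**Figure D1:**
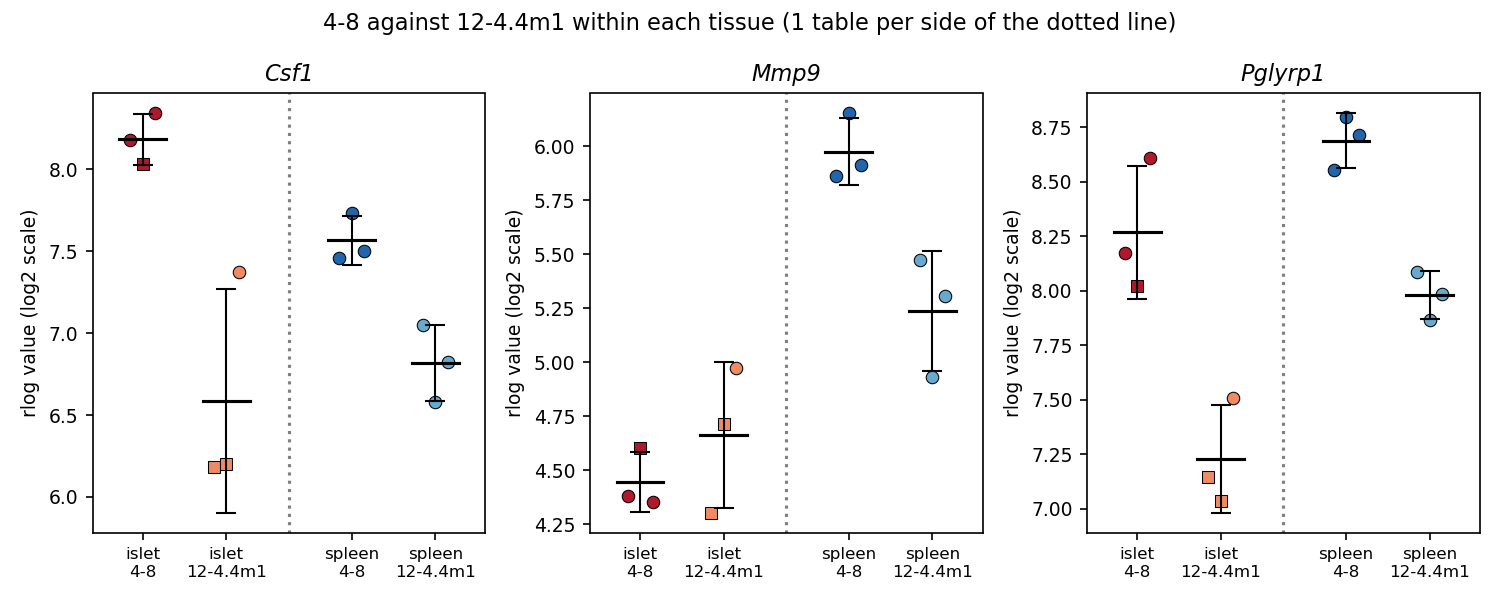
rlog values (log2 scale) of Csf1, Mmp9 and Pglyrp1 in each library, 4-8 against 12-4.4m1, in islets and, right of the dotted line, in spleen, which come from separate tables. Points are libraries, squares mark titles of the other style, and bars give the mean and SD of 3 libraries. In spleen the 4-8 libraries lie above all 12-4.4m1 libraries for the 3 genes, and in islets for Csf1 and Pglyrp1.

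Title style moved with these values. Among the libraries of the common style, 2 of islet 4-8 and 1 of islet 12-4.4m1, the difference between the TCRs was 0.89 for Csf1, -0.61 for Mmp9 and 0.89 for Pglyrp1 (log2). Among those of the other style, 1 of 4-8 and 2 of 12-4.4m1, it was 1.84 for Csf1, 0.09 for Mmp9 and 0.93 for Pglyrp1. Pglyrp1 thus differed by about the same amount within each style, while the difference in Csf1 kept its direction and varied in size. With style as a term of the fit, the differences are the diamonds in the plot of differences.

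In spleen, all 3 genes were higher with 4-8 than with 12-4.4m1, by similar amounts on the rlog scale. By the authors' FPKM the ratio of 4-8 to 12-4.4m1 was 2.56 for Csf1, 3.29 for Mmp9 and 2.14 for Pglyrp1. Csf1 had rlog values of 7.46, 7.74 and 7.5 in the spleen 4-8 libraries, against 7.05, 6.58 and 6.82 in the spleen 12-4.4m1 libraries. The groups did not overlap. The means were 7.57 ± 0.15 for 4-8 and 6.82 ± 0.23 for 12-4.4m1, a log2 difference of 0.75 or 1.68-fold, and the authors' deposited FPKM was 48.8 in 4-8 and 19.1 in 12-4.4m1.

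Mmp9, which did not separate the TCRs in islets, did so in spleen. Its rlog values were 5.86, 6.15 and 5.91 in the 4-8 libraries, against 5.47, 4.93 and 5.31 in the 12-4.4m1 libraries, without overlap. The means were 5.97 ± 0.16 for 4-8 and 5.24 ± 0.28 for 12-4.4m1, a log2 difference of 0.74 or 1.67-fold. The authors' deposited FPKM of Mmp9 in spleen was 19.3 in 4-8 and 5.87 in 12-4.4m1. The islet and spleen differences of Mmp9 come from tables normalized separately, and whether they differ was not tested.

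Pglyrp1 had the narrowest groups of the 3 genes in spleen. Its rlog values were 8.55, 8.80 and 8.72 in the spleen 4-8 libraries, against 8.09, 7.87 and 7.99 in the spleen 12-4.4m1 libraries. The means were 8.69 ± 0.12 for 4-8 and 7.98 ± 0.11 for 12-4.4m1, a log2 difference of 0.71 or 1.63-fold, and the authors' deposited FPKM was 592 in 4-8 and 276 in 12-4.4m1. All 3 members had groups that did not overlap and were higher in spleen 4-8, against 6.79% of the 9108 genes tested, and as in islets the choice of members fixes this count.

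One library pair carried part of each spleen difference. Replicate 2 was the highest of the 4-8 libraries and the lowest of the 12-4.4m1 libraries for Csf1, Mmp9 and Pglyrp1 alike. GEO's description of each of these libraries points to the other TCR's tissue table, whereas the table columns follow their titles, and the titles were used. Without both, the log2 differences were 0.54 for Csf1, 0.50 for Mmp9 and 0.60 for Pglyrp1. With Xist level as a term of the fit they were 0.60 for Csf1, 0.58 for Mmp9 and 0.69 for Pglyrp1.

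**Figure D2:**
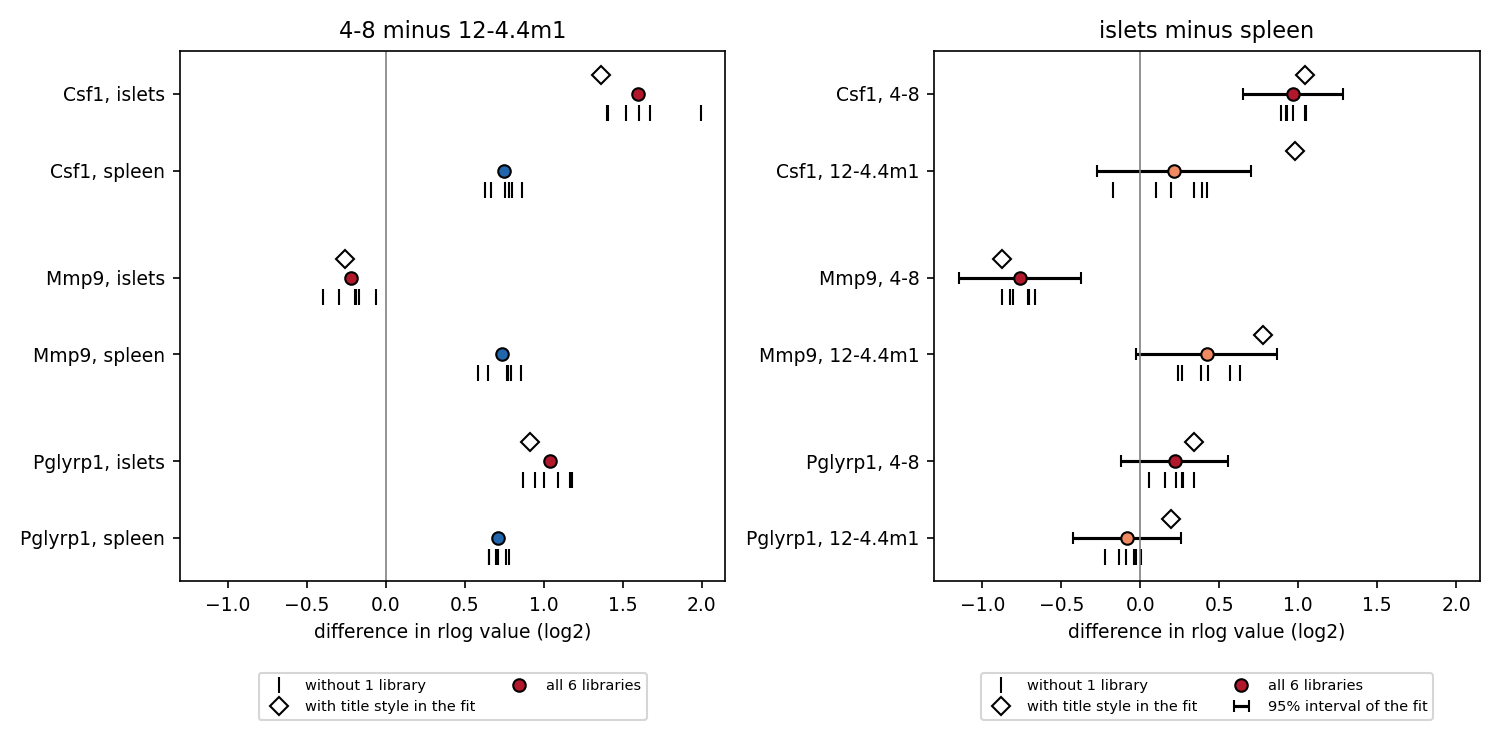
Log2 differences of the rlog values of the 3 genes, 4-8 minus 12-4.4m1 on the left and islets minus spleen on the right. Circles use all 6 libraries of a table, ticks leave out 1 library each, diamonds have title style in the fit where the islet libraries allow it, and bars on the right give the 95% interval of limma's fit. Csf1 in 4-8 lies right of 0 and Mmp9 in 4-8 left of 0 with their whole intervals, while the other 4 intervals on the right span 0.

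The tissue comparisons set islets against spleen within 1 TCR. They use the same libraries as the TCR comparisons with which the members were chosen, so their tests are not independent of that choice. In bulk RNA, fewer cells expressing a gene and less RNA per cell cannot be told apart.

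Among 4-8 Tregs, Csf1 was higher in islets and Mmp9 was lower, and Pglyrp1 did not pass the test. Csf1 had rlog values of 8.84, 8.69 and 9.0 in islets, against 7.79, 8.04 and 7.80 in spleen, with every islet library above every spleen library. Its mean was 8.84 ± 0.15 for islets, against 7.88 ± 0.14 for spleen (SD over 3 libraries). The log2 difference was 0.97 ± 0.15 (SE, 95% interval 0.65 to 1.28), or 1.95-fold, and passed with limma (adjusted p = 0.000448). The authors' deposited table gives FPKM of 140 in islets and 46.9 in spleen.

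Mmp9 ran the other way in the same libraries. It had rlog values of 5.13, 5.47 and 5.12 in islet 4-8 Tregs, against 5.88, 6.20 and 5.92 in spleen 4-8 Tregs, and the groups did not overlap. The means were 5.24 ± 0.20 in islets and 6.0 ± 0.17 in spleen, and the log2 difference was -0.76 ± 0.18 (SE, 95% interval -1.15 to -0.38), 1.70-fold lower in islets (limma adjusted p = 0.0149). This call depended on single libraries: the adjusted p was 0.0525 without islet replicate 1, 0.109 without spleen replicate 2 and 0.0562 without spleen replicate 3, with differences of -0.71, -0.66 and -0.80. The authors' deposited FPKM was 6.70 in islets and 18.5 in spleen.

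Pglyrp1 had rlog values of 8.88, 8.73 and 9.30 in islet 4-8 Tregs, against 8.63, 8.86 and 8.77 in spleen 4-8 Tregs, and the groups overlapped. The log2 difference was 0.22 ± 0.16 (SE, 95% interval -0.12 to 0.56, limma adjusted p = 0.462). A difference of up to 0.56 in favour of islets is thus within the interval. Of the 3 members 2 passed, in opposite directions, against 7.98% of the 8981 genes tested, and for these 2 the groups did not overlap, against 27.4% of genes. These counts, and the authors' tests that follow, are not independent of the choice of members, which used the same libraries. The authors' deposited tables passed the same 2 genes, with a DESeq2 adjusted p of 3.01e-07 for Csf1, 0.0317 for Mmp9 and 0.565 for Pglyrp1, where 6.76% of genes passed. Their Cuffdiff q was 0.001 for Csf1, 0.00662 for Mmp9 and 0.242 for Pglyrp1, where 15.9% passed.

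Among 12-4.4m1 Tregs none of the 3 genes passed, 0 of 3 members against 6.81% of the 8438 genes tested. At an unadjusted limma p of 0.05 the count was also 0, against 1709 of all 8438 genes, and no member had groups without overlap, against 24.1% of genes. The authors' deposited tables also called 0 of the 3, by DESeq2 (4.72% of genes called) and by Cuffdiff (14.7%). Csf1 had rlog values of 5.80, 5.87 and 6.99 in islets, against 6.27, 5.78 and 5.97 in spleen, and islet replicate 3 alone stood above the spleen libraries. Its log2 difference was 0.21 ± 0.24 (SE, 95% interval -0.28 to 0.70, limma adjusted p = 0.681). Without islet replicate 3 it was -0.17 (limma adjusted p = 0.666). That library is also the only islet 12-4.4m1 library with the common title style, and with style in the fit the difference was 0.98 (limma adjusted p = 0.0110), so the value rests on 1 library.

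Mmp9 had rlog values of 4.2, 4.69 and 4.98 in islet 12-4.4m1 Tregs, against 4.5, 3.89 and 4.22 in spleen 12-4.4m1 Tregs. The groups overlapped and the log2 difference was 0.42 ± 0.22 (SE, 95% interval -0.03 to 0.87, limma adjusted p = 0.282), of the opposite sign to that in 4-8. Since the 2 TCRs were normalized in separate tables, the difference between these tissue effects was not tested. Pglyrp1 had rlog values of 7.04, 6.95 and 7.41 in islets, against 7.33, 7.11 and 7.20 in spleen, and a log2 difference of -0.09 ± 0.17 (SE, 95% interval -0.43 to 0.26, limma adjusted p = 0.839).

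**Figure D3:**
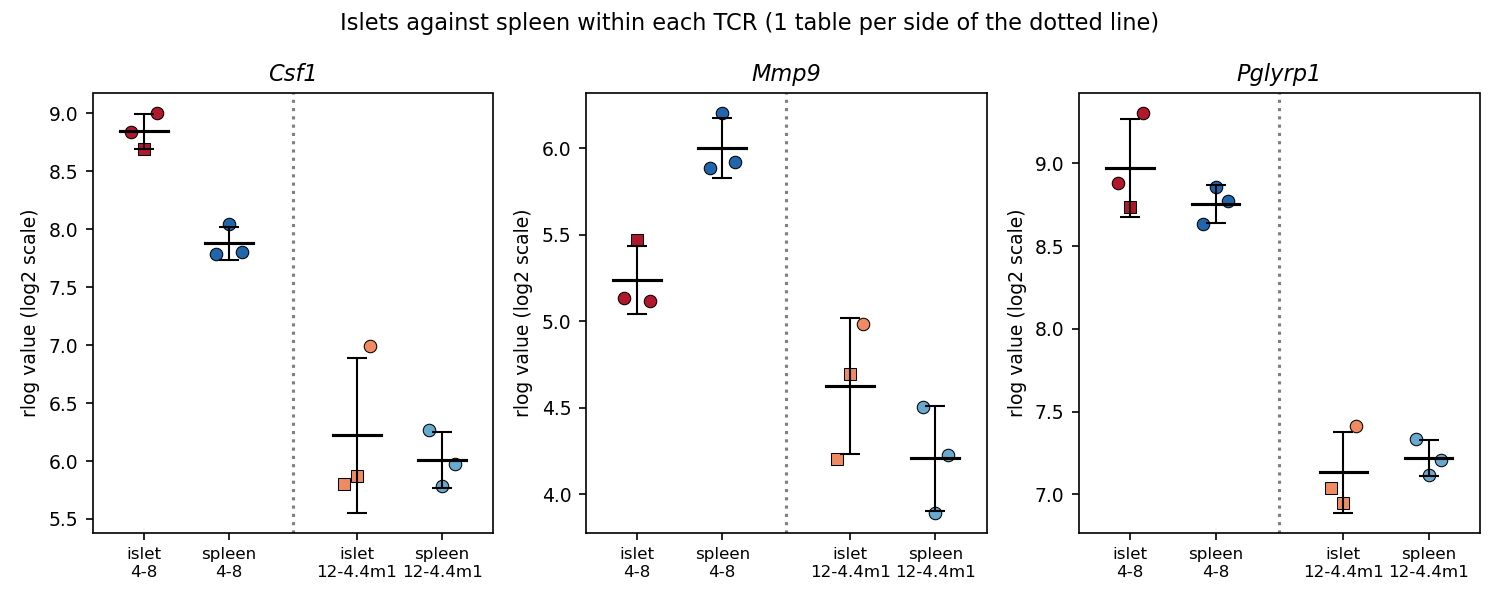
rlog values (log2 scale) of the 3 genes in each library, islets against spleen, for 4-8 and, right of the dotted line, for 12-4.4m1, which come from separate tables. Points are libraries, squares mark titles of the other style, and bars give the mean and SD of 3 libraries. Csf1 is higher and Mmp9 lower in islets for 4-8, and the 12-4.4m1 groups overlap for all 3 genes.

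FPKM takes transcript length into account, so the authors' deposited values allow levels to be compared between genes. Each group stands in 2 deposited tables, whose values differed little. Pglyrp1 was the most abundant of the 3 in every group, with an FPKM of 701 to 723 in islet 4-8, 223 to 233 in islet 12-4.4m1, 569 to 592 in spleen 4-8 and 267 to 276 in spleen 12-4.4m1. It exceeded 94.6% or more of the genes tested in each group. Csf1 was at 136 to 140 in islet 4-8, 25.7 to 26.9 in islet 12-4.4m1, 46.9 to 48.8 in spleen 4-8 and 18.4 to 19.1 in spleen 12-4.4m1, which put it above 91.2% to 91.8% of genes in islet 4-8 and above 52.8% to 55.8% in spleen 12-4.4m1. Mmp9 was the least abundant, at 6.51 to 6.70 in islet 4-8, 10.8 to 11.3 in islet 12-4.4m1, 18.5 to 19.3 in spleen 4-8 and 5.67 to 5.87 in spleen 12-4.4m1.

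To order the groups, the 4 tables were put on 1 log2 scale by least squares with a term per library and per table, which assumes that a table shifts a gene equally in all its libraries. On this scale Csf1 averaged 7.78 ± 0.14 in islet 4-8, 6.21 ± 0.60 in islet 12-4.4m1, 6.79 ± 0.13 in spleen 4-8 and 6.02 ± 0.21 in spleen 12-4.4m1. Islet 4-8 stood apart from all other groups, spleen 4-8 (6.69 to 6.96) lay inside the range of islet 12-4.4m1 (5.80 to 6.99), and the 12-4.4m1 groups overlapped each other. Mmp9 averaged 4.32 ± 0.17 in islet 4-8, 4.60 ± 0.37 in islet 12-4.4m1, 5.03 ± 0.16 in spleen 4-8 and 4.23 ± 0.29 in spleen 12-4.4m1. Spleen 4-8 came first, its lowest library (4.91) just under the highest of islet 12-4.4m1 (4.93), and the other groups overlapped. Pglyrp1 averaged 8.16 ± 0.30 in islet 4-8, 7.13 ± 0.25 in islet 12-4.4m1, 7.94 ± 0.12 in spleen 4-8 and 7.22 ± 0.11 in spleen 12-4.4m1. The order of Pglyrp1 followed the TCR: the 4-8 groups overlapped each other and lay above the 12-4.4m1 groups, which also overlapped. Since the members were chosen by their differences between TCRs, this order is not independent of the choice.

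On the same scale and over the 12 libraries, the genes whose pattern was most like that of Csf1, among 7715, included Nans (Pearson r = 0.940), Nkg7 (0.929), Cd2 (0.921) and Tnip3 (0.914). Pglyrp1 was most like Cox17 (0.916), Axin1 (0.905), Csf1 (0.902), Cd2 (0.875) and Cd27 (0.873). Cd2, an adhesion molecule of T cells, is in both sets. Mmp9 had no such close match: its nearest genes included Uri1 (0.771), Zfp617 (0.768), Cd151 (0.735) and Rpl13a (0.722), and its r was 0.149 with Csf1 and 0.246 with Pglyrp1. The 12 points share 4 groups and their tables, so these values describe likeness and carry no test. The likeness of Csf1 and Pglyrp1 is also not independent of their choice by differences between TCRs.

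Most listed receptors and partners of the 3 proteins were below the filter or did not pass the test. The CSF1 receptor Csf1r had mean normalized counts of 0.50 to 1.82 in the 4 tables, under the filter. Of 12 listed genes of the CSF1 receptor axis and the colony-stimulating factors, Csf1r included, 2 were tested, the growth factor gene Flt3l and the interleukin 3 receptor gene Il3ra, and 0 passed in any comparison with limma, against 0.365% of all tested genes called in the islet TCR comparison, 0.428% in the spleen one, 7.98% between tissues with 4-8 and 6.81% with 12-4.4m1. At an unadjusted p of 0.05 Il3ra passed in 1 comparison, 4-8 Tregs of islets against spleen (4.86 ± 0.08 in islets and 4.36 ± 0.21 in spleen, log2 difference 0.50, limma adjusted p = 0.101). Of 8 sheddases and their partners, 6 or 7 were tested, and 1 passed in 1 comparison: Adam8 was lower in islet than in spleen 12-4.4m1 Tregs (7.41 ± 0.23 in islets and 7.99 ± 0.07 in spleen, log2 difference -0.58, limma adjusted p = 0.0233). Adam17 was tested and differed by -0.12 in the islet and -0.25 in the spleen TCR comparison (log2, limma adjusted p = 0.953 and 0.659).

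Mmp9 was the only matrix metalloproteinase above the filter. Of the 18 others listed, 0 were tested in any table, and the highest mean normalized count was that of Mmp25 in the 12-4.4m1 tissue table, 6.67. Timp1, the main inhibitor of MMP9, was at 0 in all 4 tables. Timp2, another inhibitor, rose in islet 4-8 Tregs relative to spleen 4-8 Tregs (7.09 ± 0.36 in islets and 6.35 ± 0.10 in spleen, log2 difference 0.75, limma adjusted p = 0.0189). Of 13 listed inhibitors, activators and partners, 3 or 4 were tested in a comparison, and Timp2 was the 1 that passed in any. In the 4-8 tissue comparison, where it passed, 4 were tested and 7.98% of all genes were called. Cd44, which can hold MMP9 at the cell surface, was at 9.44 ± 0.18 in spleen 4-8 and 9.92 ± 0.19 in spleen 12-4.4m1, a log2 difference of -0.48 that did not pass (limma adjusted p = 0.0914).

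Of 10 further genes for peptidoglycan recognition proteins and related receptors, 4 or 5 were tested, and Pglyrp2 was the 1 that passed. It did so in the 4-8 tissue comparison, where 5 were tested and 7.98% of all genes were called. Its product is an amidase that cleaves peptidoglycan, and it was lower in islet than in spleen 4-8 Tregs (6.40 ± 0.12 in islets and 7.18 ± 0.04 in spleen, log2 difference -0.77, limma adjusted p = 0.00502). Pglyrp2 differed by -0.32 and 0.03 in the islet and spleen TCR comparisons (log2, limma adjusted p = 0.807 and 0.974). Trem1 was at 0 in all 4 tables.

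Of 34 other listed secreted factors of T cells, 22 were tested between the TCRs in islets, where 6 rose with 4-8 and 2 fell, against 0.365% of all genes called. Their median log2 difference was 0.20 against -0.004 over all genes tested. The list was chosen with earlier results of these data known, so its counts, here and between tissues, are not independent of those results. The chemokine gene Ccl4 was at 8.44 ± 0.26 in islet 4-8 and 6.08 ± 0.42 in islet 12-4.4m1 (log2 difference 2.36, limma adjusted p = 1.86e-08), and Areg, which encodes a growth factor for epithelium, fell (6.31 ± 0.45 in 4-8 and 7.71 ± 0.23 in 12-4.4m1, log2 difference -1.40, limma adjusted p = 0.000334). In spleen 20 were tested, 3 rose with 4-8 (Ccl5, Gzmb and Ccl4) and 0 fell, against 0.428% of all genes called, with a median of 0.09. The granzyme gene Gzmb was at 9.60 ± 0.33 in spleen 4-8 and 8.62 ± 0.21 in spleen 12-4.4m1 (log2 difference 0.98, limma adjusted p = 0.000458).

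Between tissues, 10 of 24 tested secreted factors rose in islet 4-8 Tregs relative to spleen and 1, Ebi3, fell, against 7.98% of all genes called, with a median of 0.36 against -0.01 over all genes. In 12-4.4m1 Tregs 7 of 21 rose and 0 fell, against 6.81% of all genes called, with a median of 0.40. The interleukin gene Il10 rose in both, by 3.04 with 4-8 and 1.57 with 12-4.4m1 (log2, limma adjusted p = 2.41e-06 and 0.000252). Csf1, which is not on this list, rose with 4-8 as well, and Mmp9 fell.

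Mmp9 and Pglyrp1 are known as neutrophil genes, and neutrophil markers were nearly absent. Of 16 listed, 15 were in the tables, 0 were tested, and 11 to 13 had a mean normalized count of 0 in a table. Camp, Ngp, Elane, Prtn3, Lcn2, Mmp8, Cebpe, Retnlg and Stfa1 were at 0 in all 4 tables, and the highest mean normalized count was 3.57, of Ltf in the 4-8 tissue table. The highest FPKM of the list in the authors' deposited tables was 4.12, of S100a8 in spleen 12-4.4m1. Summed over the list on a linear scale (2 to the power of rlog), they gave 2.73 to 2.84 in islet 4-8 and 2.54 to 2.59 in islet 12-4.4m1 libraries, and 1.14 to 1.16 in spleen 4-8 and 1.15 in each spleen 12-4.4m1 library. Within the tissue tables these sums were 3.87 to 4.14 in islets and 3.36 to 3.48 in spleen for 4-8, and 0.74 to 0.75 in both tissues for 12-4.4m1. They cover the genes above 0, 2 in the islet TCR comparison and 4 in each other, and shrinkage of such low counts draws them together. The FPKM of the list summed to 1.64 in islet 4-8 and 0.30 in islet 12-4.4m1 in the TCR comparison. In spleen it summed to 4.15 with 4-8 and 6.025 with 12-4.4m1. The tissue comparisons, in which other genes of the list were above 0, gave other sums for the same groups. There it was 1.69 in islet 4-8 and 2.62 in islet 12-4.4m1, and 2.48 in spleen 4-8 and 5.83 in spleen 12-4.4m1. The order of the islet groups thus depended on which genes were summed.

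**Figure D4:**
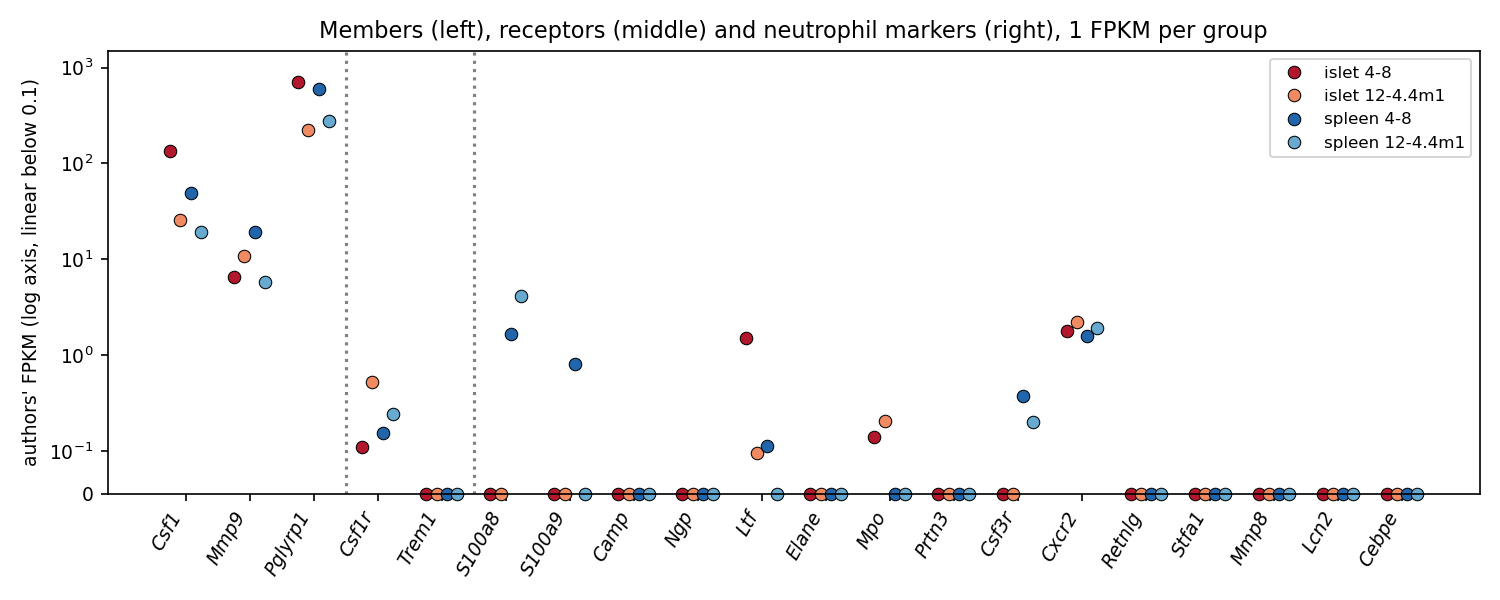
FPKM (log axis, linear below 0.1) of Csf1, Mmp9 and Pglyrp1, of the receptor genes Csf1r and Trem1 and of neutrophil markers, with 1 point per group from the authors' deposited TCR tables and no error. The 3 genes lie between 5.87 and 701, and all points of the neutrophil markers lie at or under 4.12.

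Macrophages also express these genes. Of 16 macrophage and monocyte markers 1 to 3 were tested in a table and 0 passed with limma. At an unadjusted p of 0.05 the lysosomal gene Cd68 passed in spleen alone (3.84 ± 0.09 in 4-8 and 3.59 ± 0.11 in 12-4.4m1, log2 difference 0.26, limma adjusted p = 0.381). The linear sums of the list were 378 to 571 in islet 4-8 and 386 to 448 in islet 12-4.4m1 libraries, 633 to 873 in spleen 4-8 and 477 to 883 in spleen 12-4.4m1 libraries, and overlapped. Ccr2, which Tregs express as well, made up most of them, with mean normalized counts of 385 to 714. Pancreatic acinar markers moved with tissue: of 8 tested in each tissue comparison, 6 with 4-8 and 7 with 12-4.4m1 were higher in islets. Of all genes tested, 7.98% with 4-8 and 6.81% with 12-4.4m1 were called in either direction. Of 13 listed acinar genes Prss1 and Amy2a5 were at 0. Their linear sums were 103 to 201 in islets and 69.5 to 77.7 in spleen for 4-8, and 189 to 247 in islets and 86.2 to 96.7 in spleen for 12-4.4m1. Since rlog shrinks low counts, these sums understate the difference. The authors' FPKM of the list summed to 374 in islets and 13 in spleen for 4-8. For 12-4.4m1 it summed to 622 in islets and 10.2 in spleen. The part of acinar RNA in the tissue differences of Csf1 and Mmp9 was not tested.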

How the data were processed

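RNA-seq libraries were made from sorted cells by Triton X-100 lysis, reverse transcription, cDNA amplification and Nextera XT, per the labels' protocols. The submitters' processing notes name DESeq, DESeq2 1.1.0, STAR 1.1.0, Cufflinks and TopHat 1.0.0 and the build mm10 (GRCm38), without the role of each. The authors deposited, per comparison, rlog values of single libraries (log2 scale), a DESeq2 table and a Cuffdiff table. Per the file headers, the DESeq2 table gives the mean normalized count (the signal after size factors), a log2 fold change, a Wald statistic as score and p-values, raw and adjusted. Cuffdiff output by the authors gives FPKM per group with a p-value and q-value. Low genes are shrunk in rlog, so their folds are understated.

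Each table was fitted alone with limma 3.58.1 (lmFit, eBayes with trend) in R 4.3.3, 3 against 3 libraries, 2-sided, over genes with a mean normalized count of at least 10. Adjustment was Benjamini-Hochberg over all genes tested, with a threshold of 0.05, and the procedure was tested on simulated data. Differences are 4-8 minus 12-4.4m1 and islets minus spleen, and the authors' log2 fold changes were turned to that direction. Rows of 2 repeated symbols were left out, and 0 columns were left out. One column of the islet TCR table carries a number that matches no title and was used as islet 4-8 replicate 3 by elimination: across 8168 genes its deviations correlated with that library in the 4-8 tissue table (r = 0.992; -0.332 and -0.697 with the others). Named genes were the members, up to 4 tested genes of each pathway list with the smallest p, 6 fixed genes (Csf1r, Timp1, Trem1, Cd44, Foxp3, Cd4) and the 5 genes most like each member, of which some are not reported here. The members and lists were chosen with earlier results of these data known. Alternatives were other filters, median centring, quantile normalization, robust eBayes, no trend, a replicate block, title style, Xist, single libraries left out, and the authors' DESeq2 and Cuffdiff results. Python 3.11.15, pandas 2.3.3 and matplotlib 3.10.9 were used for annotation and figures.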

Additional observations from a re-analysis of the deposited data

How the results depend on the processing

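Csf1 between tissues in 4-8 passed in all 18 alternatives, with log2 differences of 0.86 to 1.58 and an adjusted p of up to 0.00767. Mmp9 in 4-8 kept its sign in all 18 and passed in 15, with -0.88 to -0.66 when 1 library was left out. The alternatives use the libraries with which the members were chosen, so they do not make these calls independent of that choice. In 12-4.4m1, Csf1 ranged from -0.17 to 0.42 without 1 library, and was 0.98 with title style in the fit (limma adjusted p = 0.0110) and with common-style libraries alone (limma adjusted p = 0.00666). The fits of common-style libraries alone were chosen after seeing the data. Pglyrp1 in 12-4.4m1 changed sign: it ranged from -0.22 to 0.0073 without 1 library and was 0.19 with style in the fit and with common-style libraries alone. The cause was not tested.

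The TCR differences of the 3 genes kept their sign in all alternatives of the fit, but among the 3 islet libraries of the other title style that of Mmp9 was 0.09. In islets, Cuffdiff gave 2.40 for Csf1, -0.73 for Mmp9 and 1.65 for Pglyrp1, and common-style libraries alone gave 0.89 for Csf1 and -0.61 for Mmp9. In spleen, Cuffdiff gave 1.36 for Csf1, 1.72 for Mmp9 and 1.1 for Pglyrp1, DESeq2 gave 0.99 for Mmp9 and 0.86 for Pglyrp1, and leaving out both replicates 2 gave 0.54 for Csf1 and 0.50 for Mmp9. Without 1 library, the islet differences were 1.40 to 1.99 for Csf1, -0.40 to -0.06 for Mmp9 and 0.87 to 1.18 for Pglyrp1, and the spleen differences 0.63 to 0.86 for Csf1, 0.58 to 0.85 for Mmp9 and 0.65 to 0.78 for Pglyrp1.

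Counts of genes past the threshold varied more. In the islet TCR comparison, 30 became 15 with a minimum mean of 50, 54 with Xist, 52 with title style, 51 by Cuffdiff, 16 in common-style libraries and 9 to 44 without 1 library. In the spleen TCR comparison, 39 became 17 without the trend, 78 with the replicate block, 11 without both replicates 2, 21 by DESeq2, 81 by Cuffdiff and 14 to 56 without 1 library. Between tissues in 4-8, 717 became 1212 with style, 1114 by Cuffdiff, 1211 in common-style libraries and 306 to 1211 without 1 library, and in 12-4.4m1 575 became 905 by Cuffdiff and 288 to 610 without 1 library. Deviations of same-numbered libraries correlated with r of -0.12 to 0.21 over the 4 tables. In the spleen TCR comparison they were all positive (0.120, 0.086 and 0.075), against -0.088 to 0.008 between libraries of different number. Libraries there may thus be paired by number, which the main fit did not take into account. The replicate block changed no call of the 3 genes. Depth per library is unknown, and 3 libraries a group limit what can pass.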
